A study of Rattus norvegicus with 56 samples.

Results

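The chloride cotransporters of the culture are described here through their transcripts, Slc12a2, which encodes NKCC1, and Slc12a5, which encodes KCC2. The members were all probes on the array whose RefSeq accession belongs to either gene, 3 probes for 2 genes, out of 45598 noncontrol probes and 16481 genes with a symbol on the array. Slc12a2 had 1 probe, A_42_P742882, printed as 1 spot. Slc12a5 had a bright probe, A_42_P589025, printed as 10 spots on each array, and a dim probe, A_64_P034586, printed as 1 spot, both designed on the same transcript.

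NKCC1 carries sodium, potassium and chloride into the cell, and KCC2 carries potassium and chloride out. In the immature brain NKCC1 is known to keep intracellular chloride high, so that GABA can depolarise neurons, and KCC2, which is largely restricted to neurons, rises during maturation and allows GABA to inhibit. NKCC1 is also found in astrocytes and in cells of the oligodendrocyte lineage.

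The cultures were primary hippocampal cells of E18 Sprague Dawley rat embryos, grown on coated coverslips and not genetically modified. Repetitive transcranial magnetic stimulation (rTMS) was given through a coil under the dish, at 15% of the maximum output of the machine, either at 1 Hz or as intermittent theta burst stimulation (iTBS), trains of brief high-frequency bursts with pauses between them. Sham cultures stood in the incubator with the coil about 20 cm away, and untreated control cultures received no stimulation. RNA from sham, 1 Hz and iTBS cultures was taken at 5 times (0, 2, 8, 24 and 48 h), and from untreated controls at 0 h alone, which gave 16 groups. Each RNA sample was hybridised to 1 Agilent array. Of the 56 arrays, 1 Hz at 2 h replicate 2 was left out because the scanner software had marked its grid as bad, and of the 55 used, 8 groups held 4 arrays, 7 held 3 and 1 held 2. Nothing in the labels says that replicates came from separate cultures or embryos, so p-values measure the spread between arrays, which may be technical.

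The arrays also belonged to 4 series of sample numbers, called A (11 arrays used), B (12), C (17) and D (15), in which the arms and times recur. Series A came from sample numbers 1 to 18, B from 22 to 36 and C from 37 to 54, and D carried its own numbers from 1 to 15. A group held arrays of several series. The arrays lay on 7 slides, with series A on slides 1 and 2, B on 3 and 4, C on 5 to 7 and D on all of them. Time followed slide within each series, as most arrays of the 0 and 2 h times lay on an earlier slide than those of the 24 and 48 h times (in D, on slides 1 to 3 against 5 to 7). What else a series shared, such as a dissection or a plating, is not given in the sources used here. The level of a probe is the z-score of its log2 processed signal over all probes of the array, times the median array SD of 4.06. A level of 0 is the mean of the array, and differences read as log2 changes only between arrays of like SD. Levels far from 0, as those of the bright Slc12a5 probe, also carry differences in array SD. That probe exceeded Slc12a2 by 3.41 unscaled and 3.66 scaled for iTBS at 2 h in series A. For 1 Hz at 48 h in series A the values were 3.73 and 3.39. The 75th percentile of the processed signal, a measure of overall brightness, ran from 1896 to 18416 between arrays. The share of noncontrol spots well above background was 66.1% on the lowest array and 81.8% on the highest.

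All 3 probes were well above background on all 55 arrays, and no spot was saturated. The Slc12a2 probe had a processed signal of 822 to 6809 (median 2393 intensity units), the bright Slc12a5 probe 2608 to 95613 (median 21789), and the dim Slc12a5 probe 15.7 to 190 (median 58.5), against a median local background of 24 to 28. The 10 spots of the bright probe differed by a median SD of 0.07 on the log2 scale within an array. Across the 55 arrays the scaled levels of the Slc12a5 probes had a correlation of 0.26, and of 0.48 after the mean of each series was subtracted, so the dim probe followed the bright one only in part. Probes differ in how brightly they bind, so the brighter signal of Slc12a5 is not evidence of more transcript. The cells were bulk samples, in which fewer cells of a type and less RNA per cell cannot be told apart.

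Neuronal markers were present on every array. All 5 of the list (Rbfox3, Syn1, Snap25, Map2, Tubb3) were well above background on all 55 arrays, and so were the 6 astrocyte and the 7 oligodendrocyte lineage markers, so the cultures held glial transcripts beside neuronal ones. Of the 4 microglial markers, Itgam and Cx3cr1 were well above background on all 55 arrays, Aif1 on 32 and Csf1r on 7. Of the 3 endothelial and mural ones, Pdgfrb was above it on 55 arrays, Pecam1 on 53 and Cldn5 on 6.

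Slc12a2 fell with time after stimulation, and no change of Slc12a5 with time passed. The 15 arrays of the 0 h time had a mean Slc12a2 level of 4.75 ± 0.30 (SD), the 10 arrays of the 2 h time 4.68 ± 0.15 and the 10 of the 8 h time 4.67 ± 0.29. The 9 arrays of the 24 h time had 4.34 ± 0.39 and the 11 of the 48 h time 4.30 ± 0.20. The means stepped down between 8 and 24 h, and early and late arrays still overlapped when series were pooled, from 4.37 to 5.48 at 0 and 2 h and from 3.90 to 4.93 at 24 and 48 h.

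A fit with arm, time and series as terms put Slc12a2 at 24 and 48 h 0.35 ± 0.06 (SE) lower than at 0 and 2 h on the log2 scale, a change of −0.35 with a 95% confidence interval of −0.46 to −0.23 (limma, adjusted p = 4.37e-06). Over all 35694 probes tested, 33.4% passed in this comparison, 16.6% higher and 16.8% lower, with a median change of −0.04, so a call was common. Set against the 0 h time, Slc12a2 differed by 0.02 ± 0.08 after 2 h, where 0% of all probes passed, and by 0.02 ± 0.08 after 8 h, where 2.76% passed (limma, adjusted p = 0.981 and 0.973). The difference was −0.29 ± 0.08 after 24 h (adjusted p = 0.0104, limma, where 14.9% of probes passed). It was −0.38 ± 0.08 after 48 h (adjusted p = 2.02e-04, limma, where 30% passed).

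Since time followed slide, the change was also taken with slide in the model, where Slc12a2 was still −0.40 at 24 and 48 h against 0 and 2 h (limma, adjusted p = 0.00418). Only slides 2, 5 and 6 held arrays of both periods. On them the late mean of Slc12a2 differed from the early one by −0.22 (4 late and 3 early arrays), −0.68 (1 and 6) and −0.64 (3 and 2). The series were mixed on slide 2, where the late arrays were of A and 2 of the 3 early ones of D. On slide 5 all early arrays were of C and the late one of D, so series and period cannot be told apart there. On slide 6 both early arrays were of C and 2 of the 3 late ones of D. Within 1 series and 1 slide the difference was −0.31 in A (4 late arrays and 1 early) and −0.46 in C (1 and 2), and series B and D had no slide with both periods.

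The means of the bright Slc12a5 probe differed by less than their SDs. They were 7.70 ± 0.12 for the 0 h time, 7.72 ± 0.28 for 2 h and 7.79 ± 0.15 for 8 h (SD, same n). The later means were 7.71 ± 0.15 for 24 h and 7.73 ± 0.24 for 48 h. Its change at 24 and 48 h against 0 and 2 h was 0.01 ± 0.06 (SE, limma, adjusted p = 0.940), with an interval of −0.11 to 0.13, which holds no change as large as that of Slc12a2. The dim probe changed by −0.20 ± 0.14 (limma, adjusted p = 0.310), with an interval of −0.49 to 0.09 that holds both no change and the fall seen for Slc12a2.

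**Figure D1:**
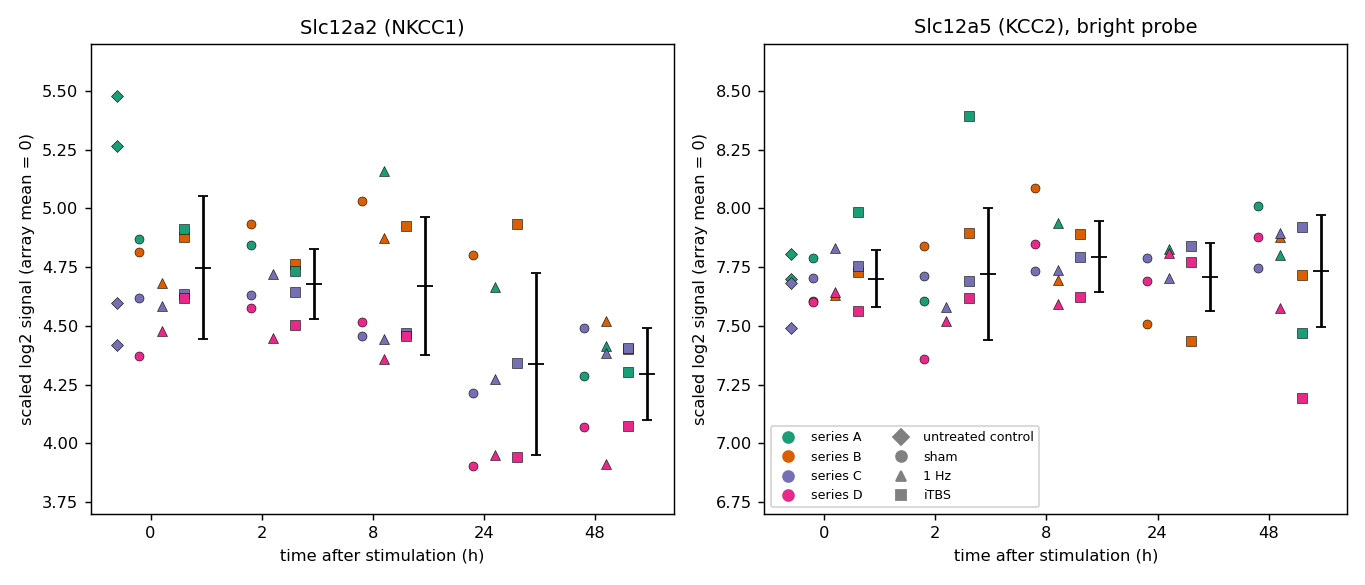
Scaled log2 signal of Slc12a2 and of the bright Slc12a5 probe on each of the 55 arrays (vertical axes, array mean 0) against the time after stimulation in hours (evenly spaced, not to scale), with colour for the series, symbol for the arm, and black bars for the mean and SD at each time. Slc12a2 has means of 4.75 at 0 h and 4.30 at 48 h, with series D lowest at 24 and 48 h, and Slc12a5 has means between 7.70 and 7.79 at all times.

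The fall of Slc12a2 was seen in sham cultures as in stimulated ones. Within the arms, the change at 24 and 48 h against 0 and 2 h was −0.34 ± 0.11 in sham, −0.38 ± 0.12 in 1 Hz and −0.33 ± 0.10 in iTBS (limma with series in the model, adjusted p = 0.0297, 0.0383 and 0.0231), in comparisons where 11%, 6.91% and 17.1% of all probes passed. The difference from sham in this change was −0.04 ± 0.16 for 1 Hz and 0.02 ± 0.15 for iTBS, neither of which passed (limma, adjusted p = 0.989 and 0.965, where 0% of all probes passed). When the sham arrays were fitted alone, the change was −0.35 but no longer passed (limma, adjusted p = 0.0584). The age of the cultures at each time is not given, so time after the procedure and age of the culture cannot be told apart.

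Within the series, the separation was clear in A and D. In series A the 6 early arrays (0 and 2 h) lay between 4.73 and 5.48 (median 4.89), and the 4 late arrays (24 and 48 h) were at 4.29, 4.30, 4.41 and 4.67. In series D the 6 early arrays lay between 4.37 and 4.62 (median 4.49) and the 6 late arrays between 3.90 and 4.07 (median 3.95). In both the early and late arrays did not overlap.

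In series C the 8 early arrays lay between 4.42 and 4.72 (median 4.62) and the 6 late arrays between 4.22 and 4.49 (median 4.36), with 5 of the 6 below every early array. In series B the early arrays were at 4.68, 4.76, 4.81, 4.88 and 4.94, and the late arrays at 4.80 and 4.93 at 24 h and at 4.40 and 4.52 at 48 h. Series B was thus the one in which Slc12a2 was still at its early level at 24 h and was lower only at 48 h. The mean late change was −0.60 in A, −0.15 in B, −0.25 in C and −0.52 in D, and the difference between the series in this change was not tested. The early arrays of A and C included untreated controls, an arm without late arrays. These controls were at 5.27 and 5.48 in A and at 4.60 and 4.42 in C. Over 1 Hz and iTBS arrays alone, the changes were −0.36 in A, −0.16 in B, −0.29 in C and −0.54 in D.

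The log2 ratio of the bright Slc12a5 signal to the Slc12a2 signal was taken on each array, where the overall brightness cancels. Its size depends on how the probes bind, so only its differences between arrays are read. It had a mean of 2.96 ± 0.27 for the 0 h time (SD, n = 15), 3.05 ± 0.17 for 2 h (n = 10) and 3.09 ± 0.25 for 8 h (n = 10). The later means were 3.39 ± 0.53 for 24 h (n = 9) and 3.45 ± 0.25 for 48 h (n = 11). The arrays at 0 and 2 h ran from 2.28 to 3.41, and those at 24 and 48 h from 2.53 to 3.94.

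Averaged over the series, the ratio was 0.40 higher at 24 and 48 h than at 0 and 2 h, which is 1.32-fold (two-sided permutation of times within series, 100000 permutations, p = 3.00e-05, Benjamini-Hochberg adjusted p = 1.20e-04 over 4 ratio tests). The early arrays of A and C included untreated controls, an arm without late arrays, and the arm was not part of this test. On the scaled levels the mean changes over the series were −0.38 for Slc12a2 and 0.01 for Slc12a5. The latter was a mean of changes in both directions, −0.10 in A, −0.11 in B, 0.14 in C and 0.10 in D, while Slc12a2 was lower in all 4 series. By arm, Slc12a5 changed by 0.12 in sham, 0.15 in 1 Hz (series B, C and D alone) and −0.23 in iTBS, none of which passed (permutation p = 0.270, 0.167 and 0.181). From A to D the changes were 0.31, −0.22, 0.06 and 0.31 in sham, and −0.72, −0.24, 0.16 and −0.11 in iTBS. With slide and series in a linear model, an alternative chosen after the data were seen, the ratio was 0.57 ± 0.15 higher (SE, permutation of residuals, p = 5.90e-04). On slides 2, 5 and 6 the late mean of the ratio was higher than the early one by 0.39 (4 late and 3 early arrays), 0.65 (1 and 6) and 0.78 (3 and 2). These differences mix series with period: slide 5 set a late D array against early C arrays, and slide 6 had mostly D late and only C early. Within 1 series and 1 slide the ratio was higher by 0.02 in A (4 late arrays and 1 early) and 0.54 in C (1 and 2). The ratio rose by 0.36 in sham arrays alone (permutation p = 0.0433), by 0.48 in 1 Hz arrays (p = 0.0279) and by 0.23 in iTBS arrays (permutation p = 0.152). Over 1 Hz and iTBS arrays together it rose by 0.32 (permutation p = 0.00626). The 1 Hz value is a mean over B, C and D (0.34, 0.42 and 0.69), as no early 1 Hz array of A was used. From A to D the changes were 0.79, −0.28, 0.28 and 0.665 in sham, and −0.04, −0.01, 0.46 and 0.52 in iTBS. Whether the change of the ratio differed between the arms was not tested. When the bright and dim Slc12a5 probes were averaged, the change was 0.27 and no longer passed (permutation p = 0.0552).

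The brightness of the arrays was set beside the ratio. Within the series the ratio had correlations of −0.16 to 0.40 with the log2 of the 75th percentile, a description over 11 to 17 arrays. The 75th percentile had a median of 4537 at 0 and 2 h and 5470 at 24 and 48 h. After its regression on the log2 of the 75th percentile within series was removed, an adjustment chosen after the data were seen, the ratio was still 0.39 higher.

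Within series C the ratio separated the times fully, from 2.99 to 3.22 on 8 early arrays (median 3.11) and from 3.34 to 3.57 on 6 late ones (median 3.53). In series D it ran from 2.84 to 3.31 (median 3.1) on 6 early arrays and from 3.12 to 3.94 (median 3.77) on 6 late ones, of which 5 were above every early array. The exception was iTBS at 48 h, at 3.12.

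In series A the 6 early arrays ran from 2.28 to 3.41 (median 2.90) and the 4 late ones were at 3.15, 3.18, 3.69 and 3.73. In series B the early arrays were at 2.64, 2.83, 2.89, 2.93 and 3.03, the 24 h arrays at 2.53 for iTBS and 2.58 for sham, and the 48 h arrays at 3.12 for iTBS and 3.27 for 1 Hz. The 24 h arrays of series B were thus below, and its 48 h arrays above, every early array of the series. At 24 h these B arrays had the lowest Slc12a5 levels of the series, 7.43 and 7.51. The mean late change of the ratio was 0.56 in A, 0.01 in B, 0.38 in C and 0.62 in D. The early arrays of A and C included untreated controls, at 2.75 and 2.28 in A and at 3.04 and 3.22 in C. Over 1 Hz and iTBS arrays alone, the changes were 0.13 in A, 0.11 in B, 0.44 in C and 0.60 in D.

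**Figure D2:**
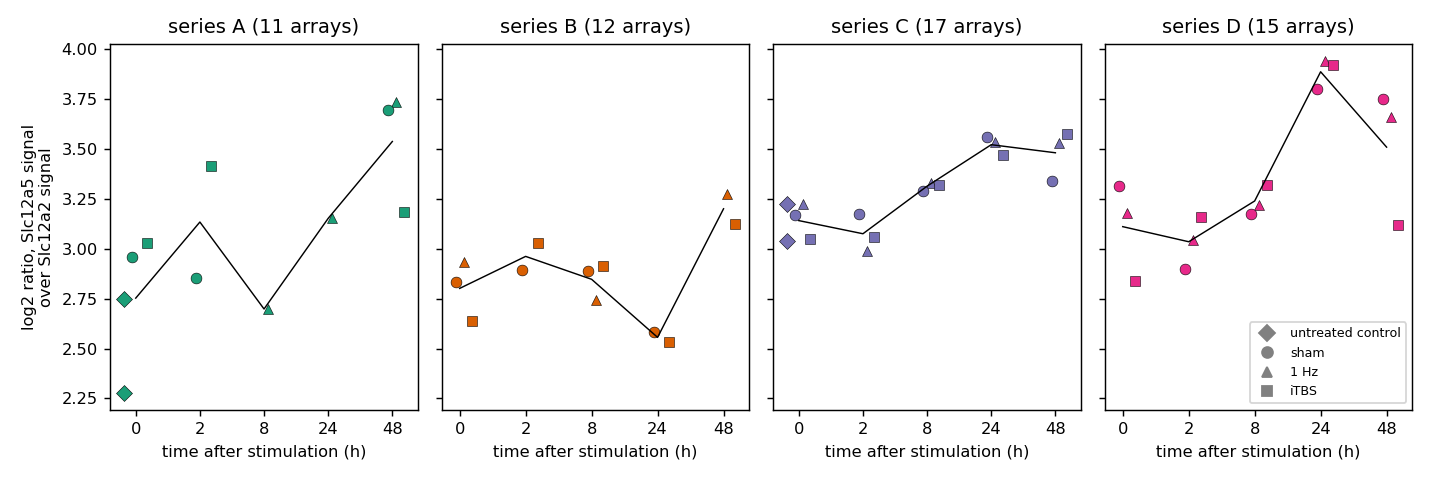
Log2 ratio of the bright Slc12a5 signal to the Slc12a2 signal (vertical axis) on each array against the time after stimulation in hours (evenly spaced, not to scale), 1 panel per series, symbols for the arms and a line through the mean at each time. In series C all 6 arrays at 24 and 48 h (3.34 to 3.57) lie above all 8 arrays at 0 and 2 h (2.99 to 3.22), and in series B the 24 h arrays are the lowest.

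No difference of either cotransporter between stimulated and sham cultures passed. Of 20 comparisons (the 2 genes, both protocols, 5 times) none passed (limma with group means, adjusted over all probes), and none had an unadjusted p under 0.05. Over all probes, the share that passed in these comparisons was 0% at 0, 24 and 48 h for both protocols and for iTBS at 2 h, 0.0056% for 1 Hz at 2 h and iTBS at 8 h, and 0.0028% for 1 Hz at 8 h, so that almost nothing was called for any gene. With series in the model as well, none of the 20 passed either, and 2 of them, iTBS on Slc12a5 at 2 and 48 h, were under 0.05 before adjustment (limma, adjusted p = 0.807 and 0.914).

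For Slc12a2 the change against sham ran from −0.16 ± 0.27 (SE, 1 Hz at 2 h, 95% confidence interval −0.70 to 0.38) to 0.10 ± 0.25 (iTBS at 24 h, interval −0.41 to 0.61). When each 1 Hz array was set against the sham array of the same series and time, the mean difference was −0.04 ± 0.11 (SD, 13 pairs, 5 of them higher, 95% interval −0.10 to 0.03, exact sign-flip permutation p = 0.263). For iTBS it was 0.01 ± 0.10 (17 pairs, 11 higher, interval −0.04 to 0.06, exact permutation p = 0.796). Averaged over the times, the intervals thus held no change of Slc12a2 beyond −0.10 or 0.06 on the log2 scale.

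For the bright Slc12a5 probe the largest changes were those of iTBS at the 2 h and 48 h times, in opposite directions. At 2 h the iTBS arrays were at 7.62, 7.69, 7.89 and 8.40 and the sham arrays at 7.36, 7.60, 7.71 and 7.84. The groups overlapped, with the iTBS array of series A highest of all 55 in scaled level, and the change was 0.27 ± 0.15 (SE, limma, adjusted p = 1.00). That array also had the lowest 75th percentile of all 55, 1896. Its rank depends on the scaling by array SD, which moved its log2 ratio of Slc12a5 to Slc12a2 from 3.41 to 3.66. Its dim Slc12a5 probe was the highest of all 55 as well, at 0.33. At 48 h the iTBS arrays were at 7.19, 7.47, 7.72 and 7.92 and the sham arrays at 7.75, 7.88 and 8.01, again overlapping, with the iTBS array of series D lowest of all 55. The change was −0.30 ± 0.16 (limma, adjusted p = 1.00). The dim probe had wider errors, and its outermost changes against sham were both in 1 Hz cultures, 0.46 ± 0.45 for the 24 h time and −0.31 ± 0.42 for 48 h. In iTBS it changed by 0.09 ± 0.39 and −0.30 ± 0.42 for the 2 h and 48 h times (limma, adjusted p = 1.00 for each).

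Set out as a change over time, Slc12a5 at 24 and 48 h against 0 and 2 h changed by −0.18 ± 0.10 in iTBS and by 0.14 ± 0.10 in sham, neither of which passed (limma, adjusted p = 0.189 and 0.398). The difference between these changes was −0.32 ± 0.14 (limma, adjusted p = 0.287), and 0% of all probes passed in this comparison. Over pairs of the same series and time, Slc12a5 differed from sham by −0.06 ± 0.19 in 1 Hz (SD, 13 pairs, 7 higher, interval −0.17 to 0.05, exact permutation p = 0.285). In iTBS it differed by 0.00 ± 0.32 (17 pairs, 10 higher, interval −0.16 to 0.17, exact permutation p = 0.967). The spread of the pairs was wider for iTBS than for 1 Hz, 0.32 against 0.19, a difference that was not tested. The outermost iTBS pairs were 0.79 in series A at 2 h, with the array of lowest brightness, and −0.69 in series D at 48 h, both on scaled levels.

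The ratio did not separate the protocols from sham. For 1 Hz the mean pair difference of the ratio was 0.01 ± 0.12 (SD, 13 pairs, 8 higher, interval −0.06 to 0.08, exact sign-flip permutation p = 0.682). For iTBS it was −0.04 ± 0.30 (17 pairs, 9 higher, interval −0.19 to 0.11, exact permutation p = 0.633). By time, the iTBS pairs had mean differences of −0.18 at 0 h and 0.21 at 2 h. The later ones were 0.07 at 8 h, −0.01 at 24 h and −0.30 at 48 h. With at most 4 pairs at a time, the smallest p of a two-sided exact sign-flip test is 0.125, so the times were not tested apart.

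**Figure D3:**
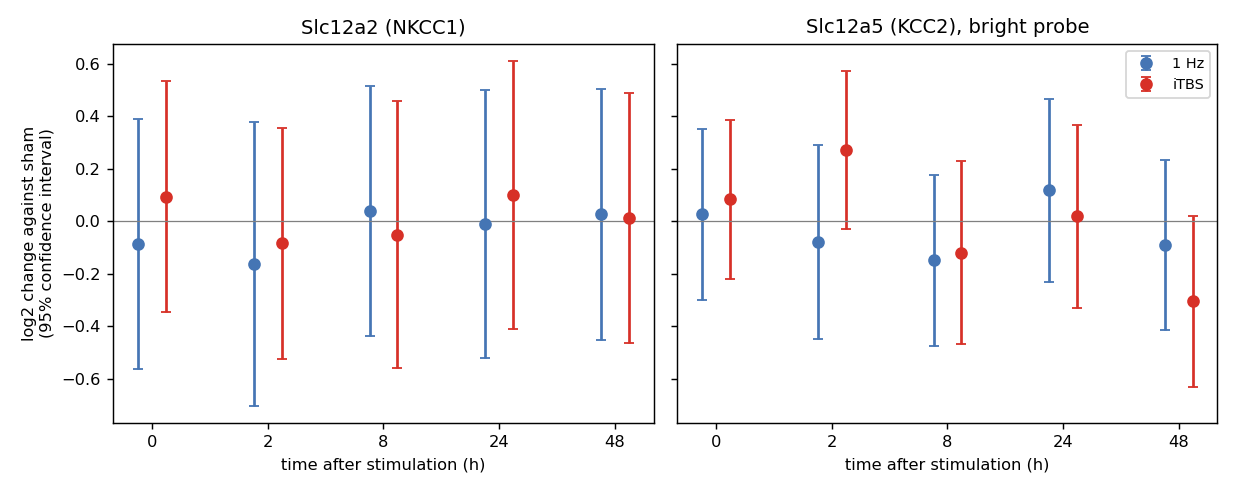
Log2 change against sham at the same time (vertical axis, with 95% confidence intervals from limma) for Slc12a2 and the bright Slc12a5 probe, 1 Hz in blue and iTBS in red, against the time after stimulation in hours (evenly spaced, not to scale). Every interval holds 0, and the largest changes are those of iTBS on Slc12a5, 0.27 at 2 h and −0.30 at 48 h.

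Untreated controls and sham cultures at 0 h were compared as a check of the sham procedure. Slc12a2 was at 4.42, 4.60, 5.27 and 5.48 in the controls and at 4.37, 4.62, 4.81 and 4.87 in sham, with a change of 0.27 ± 0.22 (SE, limma, adjusted p = 1.00). The control arrays split by series, those of A at 5.27 and 5.48 and those of C at 4.42 and 4.60. Slc12a5 changed by −0.01 ± 0.15 (limma, adjusted p = 1.00), and 0.0028% of all probes passed. No control array belonged to series B or D.

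Ordered by mean level, the 16 groups gave no step between neighbours that was larger than the greater of their SDs, for Slc12a2, Slc12a5 or the ratio. For Slc12a2 the order ran from sham at 48 h (4.28 ± 0.21) to untreated control at 0 h (4.94 ± 0.51), and the 6 lowest groups were the 6 groups of 24 and 48 h. For Slc12a5 the lowest mean was that of 1 Hz at 2 h (7.55 ± 0.04) and the highest that of iTBS at 2 h (7.90 ± 0.35), with early and late groups mixed. For the ratio it ran from untreated control (2.82 ± 0.41) to sham at 48 h (3.59 ± 0.22), and again the 6 groups of 24 and 48 h stood together, at the top.

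The series differed more than the treatments did, and Slc12a2 was lowest in D. Its mean level was 4.81 ± 0.39 in series A (SD, n = 11), 4.80 ± 0.18 in B (n = 12), 4.49 ± 0.14 in C (n = 17) and 4.28 ± 0.27 in D (n = 15). In 14 of 15 groups the D array had the lowest Slc12a2 of its group. The difference between series passed (limma, moderated F = 24.1, adjusted p = 9.26e-09), in a comparison where 76% of all probes passed. With the replicate number as a block the F was 6.54 (limma, adjusted p = 0.00236).

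With arm and time in the model, Slc12a2 was −0.39 ± 0.06 (SE) in D against A, B and C (limma, adjusted p = 9.27e-08, where 53.6% of probes passed, 29.2% higher and 24.4% lower). It was −0.32 ± 0.06 in C against A and B (adjusted p = 1.35e-05, limma, 41.6%) and 0.00 ± 0.08 in B against A (limma, adjusted p = 0.999, 31.6%). The series thus fell into an upper pair, A and B, and lower levels in C and D.

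Slc12a5 differed less between series. Its mean level was 7.85 ± 0.24 in A, 7.74 ± 0.19 in B, 7.74 ± 0.10 in C and 7.62 ± 0.18 in D (SD, same n), and the D array was the lowest of its group in 9 of 15 groups. The moderated F was 3.71 (limma, adjusted p = 0.0252), and D against A, B and C was −0.17 ± 0.06 (SE, limma, adjusted p = 0.0126). The F test no longer passed after quantile normalisation, with slide in the model, or without the arrays of replicate number 2 or 4 (F = 2.80, 3.06, 2.65 and 1.28). The dim Slc12a5 probe went the other way, 0.47 ± 0.14 higher in D (limma, adjusted p = 0.00458), and was above all numbered arrays of its group in 10 of 15 groups, so the direction of Slc12a5 in D depends on the probe.

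The ratio was 0.22 ± 0.31 higher in the D array than in the mean of the numbered arrays of its group (SD over 15 groups, D higher in 11, two-sided permutation of series labels within groups, p = 0.0215, adjusted p = 0.0430). Without the arrays of series B, it was 0.08 and did not pass (permutation p = 0.224). With the bright and dim Slc12a5 probes averaged, it was 0.54 (permutation p = 6.00e-05).

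Cell type markers also separated series D, in the comparison where 29.2% of all probes were higher and 24.4% lower. All 7 oligodendrocyte lineage markers were lower in D, by a median of −2.70 on the log2 scale, with Mbp, a myelin protein, at −3.93 and Sox10, a transcription factor of the lineage, at −3.42. Their summed signal, as a multiple of the 75th percentile of the array, was 15.4 to 50.9 in D against 74.9 to 267 in A, B and C. The 3 cycling or progenitor markers tested were lower as well, and the 3 fibroblast markers were higher, Col1a1 by 4.86 (limma, adjusted p under the threshold for each of these genes). Neuronal markers were higher for 2 of 5 and lower for none. Astrocyte markers went both ways, 3 of 6 higher and 2 lower (median 0.10), with Gfap at 2.20 and Aldh1l1 at −1.51. The part of these cell types in the Slc12a2 level was not tested.

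Between times, where 16.6% of all probes were higher and 16.8% lower, astrocyte markers had a median change of 0.52, neuronal markers of −0.18 and oligodendrocyte lineage markers of 0.26. Of 6 astrocyte markers 4 rose at 24 and 48 h, led by Gfap (1.55 ± 0.15) and Aqp4 (0.78 ± 0.12), and Aldh1l1 fell, with a summed signal of 85.7 to 157 early and 127 to 275 late. Of 7 oligodendrocyte lineage markers 2 rose, Cspg4 (0.38 ± 0.14) and Olig1 (0.37 ± 0.15), and of 5 neuronal markers 2 fell, Tubb3 (−0.67 ± 0.14) and Map2 (−0.43 ± 0.14), with a summed signal of 52.9 to 154 early and 44.4 to 86.7 late. Among progenitor markers Nes fell (−0.43 ± 0.11), Mki67 (−0.07 ± 0.12) and Sox2 (0.12 ± 0.07) did not pass, and no probe was matched to Top2a. Of 3 fibroblast markers Dcn rose and Col1a1 fell, and none of the 4 microglial, 3 endothelial and mural and 2 choroid plexus markers passed. Their part in the fall of Slc12a2 was not tested.

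Among 6 other members of the SLC12 family, only Slc12a7 (KCC4, another potassium and chloride exporter) passed between times, against 33.4% of all probes. It was 0.43 ± 0.13 higher at 24 and 48 h (limma, adjusted p = 0.00932). These 6 genes had a median change of −0.02 against −0.04 over all probes. Slc12a4 (KCC1) changed by 0.02 ± 0.08, Slc12a8 by −0.09 ± 0.09 and Slc12a9 by 0.14 ± 0.10, and none of these passed. Slc12a3 (−0.36 ± 0.23) and Slc12a1 (−0.05 ± 0.19), which encode the cotransporters NCC and NKCC2 of the kidney, were above background on 48 and 44 of 55 arrays and did not pass. In series D, where 29.2% of all probes were higher and 24.4% lower, 3 of these 6 genes were higher and 1 was lower. Slc12a4 was 0.70 lower and Slc12a7 0.76 higher on the log2 scale (limma, adjusted p = 2.24e-10 and 2.74e-06). Slc12a1 was 0.43 and Slc12a8 0.36 higher (limma, adjusted p = 0.0494 and 5.01e-04).

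The WNK kinases act through their targets STK39 (SPAK) and OXSR1, which phosphorylate both cotransporters, and this activates NKCC1 and inhibits KCC2. Of the 8 genes of this group 4 passed, against 33.4% of all probes. At 24 and 48 h 3 fell, Wnk3 (−0.62 ± 0.17), Wnk2 (−0.44 ± 0.08) and Cab39 (−0.22 ± 0.05), and Cab39l rose (0.37 ± 0.06). Cab39 and Cab39l encode MO25 proteins, which enhance the activity of the kinases downstream of WNK. Wnk1 (0.09 ± 0.06), Wnk4 (−0.04 ± 0.14), Stk39 (−0.10 ± 0.10) and Oxsr1 (0.04 ± 0.09) did not pass, and the median of the group was −0.07.

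Among 20 tested partners and regulators of KCC2, 5 rose and 5 fell (median −0.06), where 16.6% of all probes rose and 16.8% fell. The largest changes among those that passed were Capn1 (1.02 ± 0.13), a calpain subunit that can cleave KCC2, and Prkcd (0.79 ± 0.15), a protein kinase C. The largest falls were those of Bdnf (−0.72 ± 0.16) and Egr4 (−0.62 ± 0.14). Neto2, an auxiliary subunit of kainate receptors that binds KCC2, fell by 0.56 ± 0.10, and its kainate receptor partner Grik2 fell by 0.52 ± 0.11. Usf1 also fell (−0.37 ± 0.10). No probe was matched to Prkca.

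Of 12 chloride channels and anion exchangers 1 rose and 2 fell (median 0.09), a share below the 33.4% of all probes. The genes that fell were Clcn5 (−1.0 ± 0.18) and Clcn7 (−0.42 ± 0.11), both of which encode endosomal or lysosomal chloride and proton exchangers. The riser was Clcn2 (0.23 ± 0.08). No probe was matched to Slc26a11.

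Of 12 genes of the GABA synapse 1 rose and 3 fell (median −0.12), a share near the 33.4% of all probes. Those that fell were Slc32a1 (−0.38 ± 0.13), the vesicular GABA transporter, Gabra5 (−0.30 ± 0.11), a GABA-A receptor subunit, and Gabbr2 (−0.27 ± 0.06), a GABA-B receptor subunit. Gabrd (0.17 ± 0.06), another GABA-A receptor subunit, rose, and Gad1 (0.06 ± 0.09) and Gad2 (−0.11 ± 0.12), which make GABA, did not pass. In series D, where 29.2% of all probes were higher and 24.4% lower, 7 of the 12 were higher and 2 lower, with Slc32a1 higher by 1.44. None of the genes of these lists passed in any comparison of a protocol with sham.

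**Figure D4:**
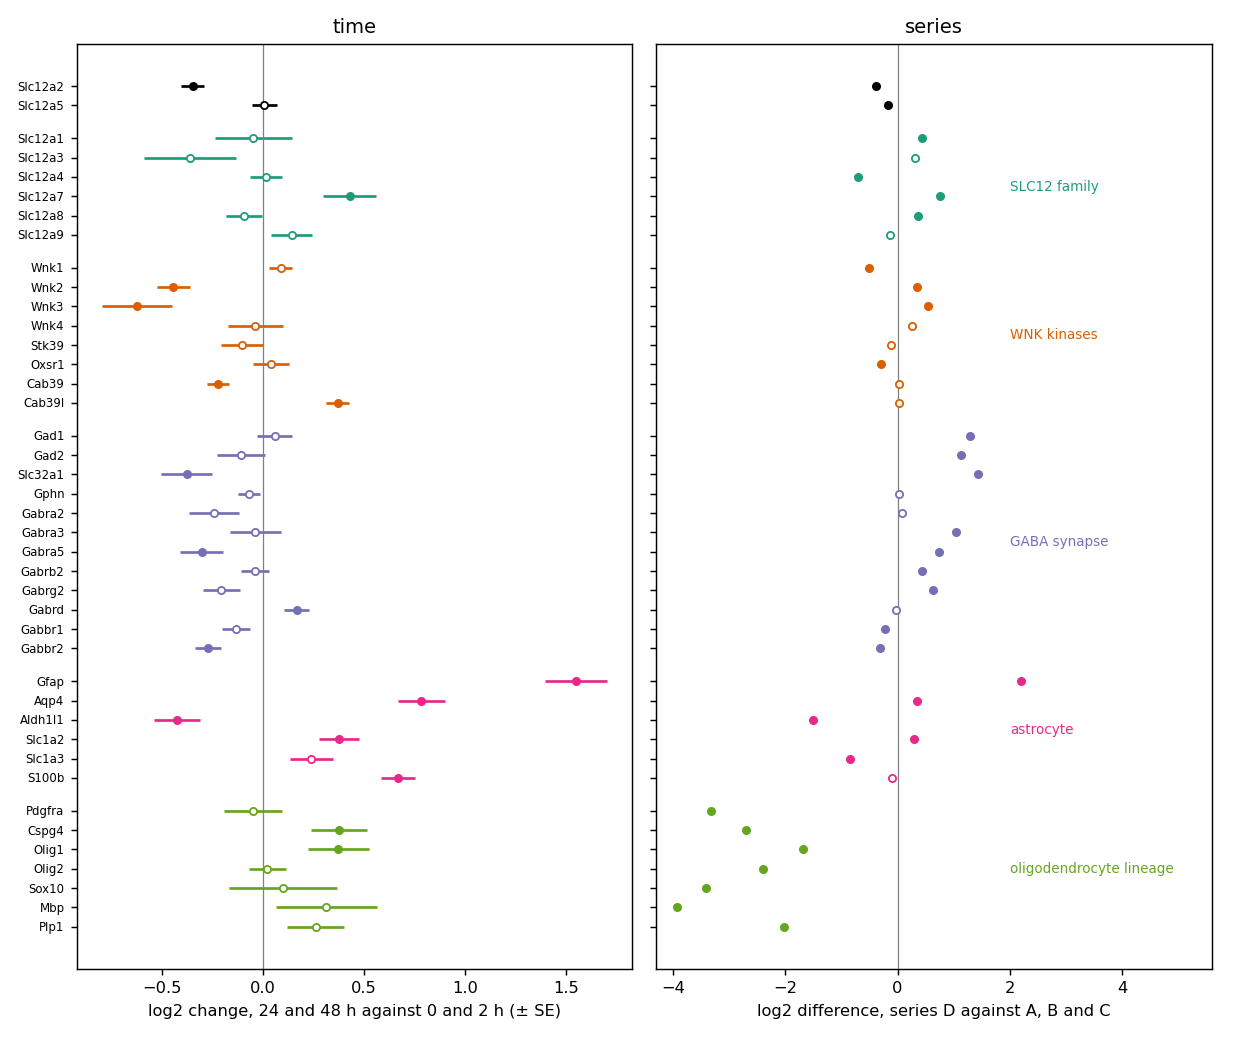
Log2 change at 24 and 48 h against 0 and 2 h with SE (left) and log2 difference of series D against A, B and C without error bars (right) for Slc12a2, Slc12a5 and the genes of 5 lists, filled where the adjusted p from limma was under 0.05. Slc12a2 is lower in both panels (−0.35 and −0.39), and all 7 oligodendrocyte lineage markers are lower in series D.

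The genes whose series-centred level followed each member most closely differed between the members. Over 55 arrays and 17729 probes with a symbol, those of Slc12a2 were Cdh2 (r = 0.85), Ppm1l (0.84), Nop56 (0.82), Chsy1 (0.82) and Pgam5 (0.82), each of which also fell at 24 and 48 h, by 0.24 to 0.42. Those of Slc12a5 were Git2 (r = 0.80), Car11 (0.78), Slit1 (0.78), Hgs (0.73) and Adcy5 (0.72), none of which passed between times. These correlations are descriptions of arrays that share series, times and overall brightness. Slc12a2 and Slc12a5 themselves had a series-centred correlation of −0.10 and a plain one of 0.18.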

How the data were processed

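Cy3-labelled RNA had been hybridised to Agilent rat arrays, 1 sample each. The deposited scanner files hold, per spot, a processed signal, an intensity that the authors extracted with Feature Extraction 12.0.3.1 and did not normalise between arrays. The deposited series table holds a z-score per probe, a score that the authors made within each array. Z-scores of the log10 signals met it within 0.00500. Spots were averaged per probe on the log2 scale without outlier spots (420 probes lost). A probe had to exceed background on 3 arrays to be tested (35694 did, 9484 did not), with symbols from RefSeq (assembly GRCr8) for 17732. Probe coordinates and sequences were not used here.

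limma 3.58.1 in R 4.3.3 was fitted to group means, or to arm, time and series. Passing means a p under 0.05 after Benjamini-Hochberg adjustment over the probes tested. The ratio was tested by permutation of arrays. Intervals of pair differences invert the sign-flip test. The code was tested on simulated data of 35694 probes, where 53% of 100 probes changed by 0.5 and 90% of 100 changed by 1 (log2) were called between times. There were 10 false calls. Far more probes passed in the real comparison (33.4%), which changes the adjustment, so these shares do not give the share recovered in the data. The number of arrays limits the precision. The members and gene lists were chosen with earlier results of these data known. In each list, the 2 genes with the largest change among those that passed were to be named, with all SLC12 and WNK genes, and further genes were named after their values were seen. Some genes of these lists are not reported here and were left out of the lists' counts and medians. Among genes with several probes, the brightest stood for the gene. Alternatives covered scaling (75th percentile, quantile after normexp on the median spot signal with offset 50), filter, blocks (slide, replicate number), probes, brightness and left-out arrays.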

Additional observations from a re-analysis of the deposited data

Results flagged for a closer look

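Within the 8 groups of 4 arrays, 3 values lay far from the other arrays of their group, of 32 groups of values looked at (3 probes and the ratio). Chance gives such a gap in about 1 of 20 groups. The log2 ratio was 3.17 in sham at 2 h replicate 2 (series C) against 2.85 to 2.90 on the other 3 arrays. It was 3.57 in iTBS at 48 h replicate 3 (series C) against 3.12 to 3.18. The dim Slc12a5 probe was at −1.66 in iTBS at 48 h replicate 2 (series B) against −1.06 to −0.95.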

How the results depend on the processing

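The fall of Slc12a2 at 24 and 48 h passed under every alternative but the sham arrays alone (−0.35) and all 56 arrays (−0.0030), and was −0.37 to −0.32 when each replicate number was left out. For Slc12a5 the change, near 0 and never past the threshold, turned sign with slide (−0.011) or replicate block (−0.00075) in the model and for the dim probe (−0.20), and ran from −0.051 to 0.092 without each replicate number. The series difference of Slc12a5 no longer passed with quantile normalisation (F = 2.80), slide (3.06), replicate block (1.95) or all 56 arrays (0.61), and F ran from 1.28 to 4.57 without each replicate number. That of Slc12a2 was lost with all 56 arrays (F = 0.68) and was smaller with the replicate block (6.54). With all 56, 2 of the 20 protocol comparisons passed. That setting adds back only the array with the bad grid, on which 25.3% of noncontrol spots were well above background. The ratio's difference of 1 Hz from sham turned to −0.022 on scaled levels and to −0.080 with both Slc12a5 probes averaged. It ran from −0.00079 to 0.030 without each pair or series, and for iTBS from −0.073 to 0.0016. The late change of the ratio with both probes averaged was 0.27 and did not pass, and with slide in the model it was 0.57. Series D against the others gave 0.083 to 0.39 without each other series and 0.54 with both probes averaged. The causes were not tested. Same-numbered replicates had a mean correlation of deviations of 0.16 (lowest −0.46), against −0.06 for different numbers and 0.40 within series. Arrays were thus more alike within series than within replicate number, and these values do not settle whether the numbers pair samples. With the replicate block, the ratio differed by 0.04 in 1 Hz and by −0.04 in iTBS, and was 0.41 higher late. The number of arrays limits what could be seen.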
